A study of Mus musculus with 24 samples.

Results

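The data described here are 12 of the 24 libraries of a bulk RNA-seq series on mouse distal jejunum, namely all the libraries from male mice, and the question asked of them was whether the response to succinate differed between wild type and Ptk6-/- animals. The members were chosen by the start of the library name, which marks the sex, and each of the 4 male groups held 3 libraries, each labelled as a biological replicate. Wild type and Ptk6-/- males drank either regular water or water with 100 mM succinate for 7 days. The Ptk6-/- line carries a germline disruption, so the disruption was present in every cell and throughout development, and the line had been backcrossed to C57BL/6 for more than 20 generations. The mice came from 1 colony but from different litters, were matched for age, and were 9 to 11 weeks old at the end. For each gene the interaction was computed, the log2 change with succinate in Ptk6-/- males minus the log2 change with succinate in wild type males, so that a value below 0 means a smaller rise, or a larger fall, in Ptk6-/- males. A gene entered the test when at least 3 of the 12 libraries held at least 10 counts, which left 20340 genes, and a gene was called at an adjusted p under 0.05 in edgeR's quasi-likelihood test with a change of at least 2-fold. The p-values measure the spread between these animals and libraries only.

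Tuft cells are rare chemosensory epithelial cells. They sense succinate, which is released by protists and bacteria in the gut lumen, through the receptor SUCNR1 and a taste-type cascade that opens the TRPM5 channel, and they then release interleukin 25 and lipid mediators. Group 2 innate lymphoid cells answer with interleukin 13, which acts on epithelial progenitors through STAT6, so that more tuft and goblet cells form and the epithelium makes gasdermin C proteins, small proline-rich proteins and resistin-like beta. PTK6 is a non-receptor tyrosine kinase of the differentiating gut epithelium. In bulk tissue, fewer cells of a type and less RNA per cell cannot be told apart.

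Ptk6 was checked first. The wild type water libraries held 23.7, 25.5 and 38.5 CPM (counts scaled to 1000000 per library, after TMM scaling), the wild type succinate libraries 40.7, 20.9 and 29.7, the Ptk6-/- water libraries 0.65, 1.15 and 0.832, and the Ptk6-/- succinate libraries 1.98, 0.488 and 0.628 CPM. The genotypes did not overlap, as the labels say, and residual counts remained in every Ptk6-/- library. The interaction of Ptk6 itself was -0.30 (SE 0.60, unadjusted p = 0.63 in edgeR's test). The related kinase genes Frk and Srms had -0.19 and -1.55 (unadjusted p = 0.72 and 0.32), and Srms -6.38 without Ptk6-/- succinate 3. With each library left out in turn Ptk6 ran from -0.74 to 0.07 and Frk from -0.46 to 0.10, so that both signs turned. Enterocyte genes summed to between 24500 and 61000 CPM per library, and the 1 exocrine pancreas gene tested of 5, Cela1, lay between 2.37 and 6.27 CPM. Ptk6-/- succinate 1 stood apart in other tissue markers: its heart muscle genes summed to 220.5 CPM against 13.9 to 79.3 in the other 11 male libraries, and its erythrocyte genes to 978 against 53.3 to 303. Its distal small intestine genes summed to 10620 CPM against 1222 to 4595 and its proximal ones to 369 against 436 to 1017, and the part of these differences in the results was not tested.

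Libraries that stood apart touch several results. Total counts ran from 8080321 to 52824743, with the shallowest library Ptk6-/- succinate 1, where 3 counts correspond to 0.847 CPM against 0.0499 to 0.243 CPM in the others. The 18S ribosomal RNA gene Rn18s-rs5 took 51.22% of the counts of wild type water 1 (95% Wilson interval 51.2 to 51.24), 29.71% of Ptk6-/- succinate 1 (29.68 to 29.74) and at most 4.486% of any other male library; such intervals cover counting error only. A set of 14 transcripts, several of them known from macrophages or neutrophils (Ccl2, Ccl7, Cd207, Cd5l, Chil3, Clec4g, Cxcl2, Gdf15, Gm47428, Marco, Ngp, S100a8, Spic and Wfdc17), chosen after the values were seen because each was at least 3-fold higher in 8 male libraries than in any of the other 4, summed to between 37.3 and 63.5 CPM (scaled over all 24 libraries) in those 8. In wild type water 1 and in all 3 Ptk6-/- succinate libraries the sum lay between 0.559 and 2.32 CPM, and in the 12 female libraries between 1.56 and 8.88 CPM. No gene met the reverse rule. Since every Ptk6-/- succinate library is among the 4 low ones, that split and the interaction cannot be told apart except through wild type water 1.

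**Figure D1:**
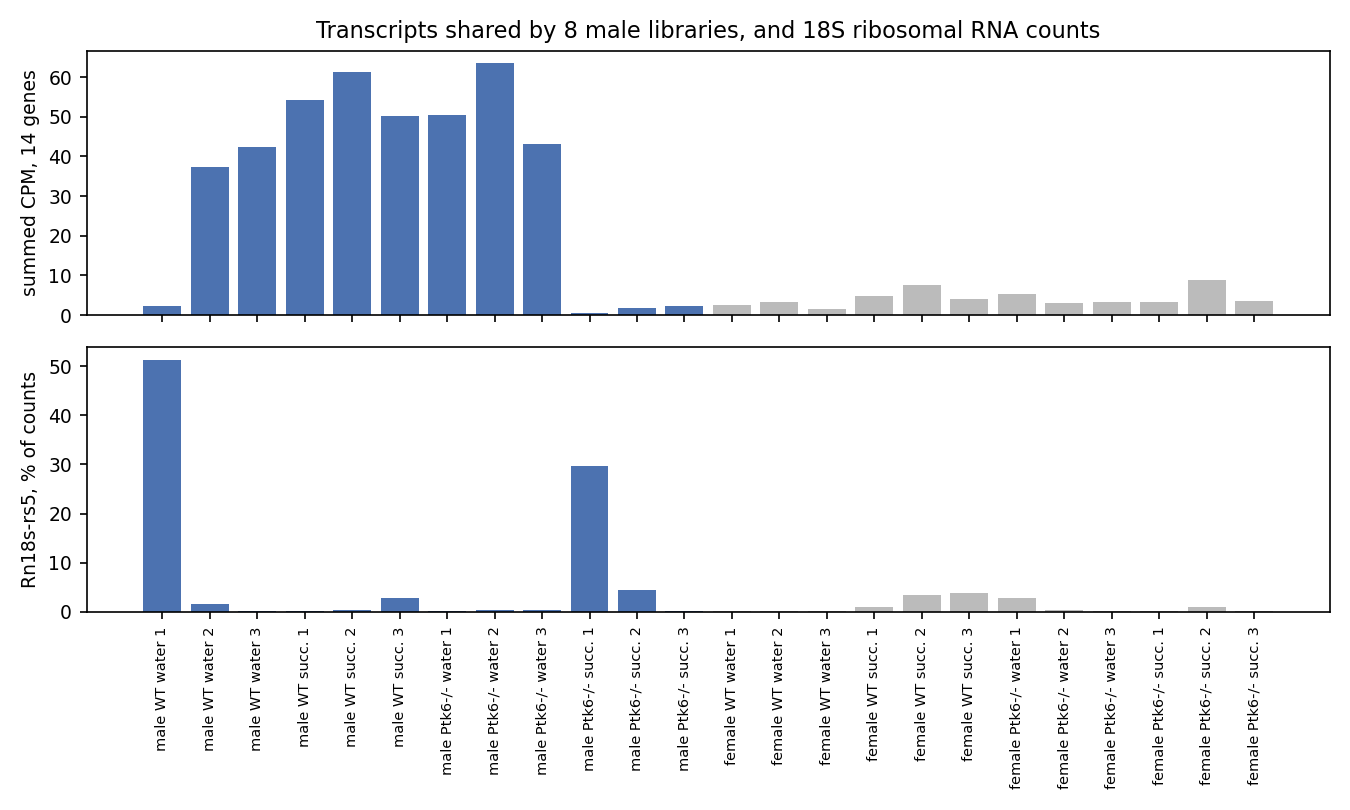
Bars give, for each of the 24 libraries (male in blue, female in grey), the summed level of the 14 transcripts in CPM in the upper panel and the share of counts of Rn18s-rs5 in percent in the lower panel. The 8 high male libraries sit between 37.3 and 63.5 CPM while wild type water 1, the Ptk6-/- succinate libraries and all female libraries stay at or below 8.88 CPM, and wild type water 1 and Ptk6-/- succinate 1 carry the 2 tall 18S bars.

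Across all genes the interaction called 0 of 20340 genes (0%) in edgeR's test, with a smallest adjusted p of 0.0749. At an unadjusted p under 0.05 there were 772 genes, 434 with an interaction above 0 (2.13%) and 338 below 0 (1.66%). DESeq2 called 62 genes and limma voom with sample quality weights called 2, Gpihbp1 and Fam131a, the former named here after its values were seen. Values under 0 made up 11393 of 20340 genes (56%), and the median interaction was -0.08. Succinate against water called 0 genes (0%) in wild type males, with 816 genes at an unadjusted p under 0.05, of which 553 were higher with succinate (2.72%), while DESeq2 called 30 and voom 1542, and edgeR's test called 129 when wild type succinate 1 was left out. In Ptk6-/- males it called 1 gene (0.00492%), the predicted gene Gm47428 of the set of 14 (-5.50, SE 0.66, adjusted p = 0.0394 in edgeR's test), with 1789 genes at an unadjusted p under 0.05, of which 1434 were higher (7.05%). Both counts depended on Ptk6-/- succinate 1. Without that library 426 genes passed this threshold in Ptk6-/- males, 163 higher and 263 lower. In wild type males 1585 genes then passed it, of which 1092 were higher. In counts simulated from these libraries the same test called 9 of 50 genes given a 4-fold interaction and 33 of 50 given an 8-fold one. Those genes had a mean of at least 1 CPM, and no simulated library stood apart in its composition. At that level and under that setting a single gene with an interaction of a few fold was mostly not detectable by the call. Genes at lower levels were not simulated with an interaction. Single genes below are therefore given by their levels, the size of the interaction and the unadjusted p.

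Leaving out wild type water 1 gave 5 calls, Clec4g, Gm47428, Ngp, Marco and S100a8, all below 0 and all in the set of 14, and leaving out Ptk6-/- water 3 gave 1, the unnamed gene ENSMUSG00000107877. The calprotectin subunit S100a8, the gene with the smallest p in the full fit (unadjusted p = 6.4e-06, adjusted p = 0.0749), had 0 counts in each Ptk6-/- succinate library against 168, 234 and 117 in Ptk6-/- water, at least 9.82-fold lower with 3 counts per library as the floor. In wild type water 2 and 3 it had 147 and 112 counts, and in the wild type succinate libraries 194, 203 and 150. The endothelial and macrophage lectin Clec4g had 0 counts in the Ptk6-/- succinate libraries and 407, 645 and 396 in Ptk6-/- water, at least 27.6-fold lower. For the scavenger receptor Marco, the neutrophil granule protein Ngp and the chitinase-like Chil3, the same comparison gave at least 5.18-fold, 4.27-fold and 3.62-fold lower. These genes were also near 0 in wild type water 1, with 0.405 CPM of S100a8, 0.324 CPM of Clec4g and 0 CPM of Marco, Ngp and Chil3. The rule that chose the 14 took every Ptk6-/- succinate library as low, so that their low interactions follow from the choice and their place in the list is no result. Whether these transcripts differed with genotype and succinate or with the handling of 4 samples was not tested.

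Other genes at the top of the list lay outside the set of 14. Fam131a, whose function is little known, was at 0.892, 0.399 and 0.443 CPM in wild type water and 2.18, 3.91 and 5.22 in wild type succinate. Without Ptk6 the levels were 1.60, 2.75 and 1.52 in water and 0, 0.677 and 0.502 in succinate. The groups did not overlap in either genotype and went in opposite directions, with an interaction of -4.76 (SE 0.84, unadjusted p = 9.7e-05, adjusted p = 0.40 in edgeR's test) and of -4.90 without wild type water 1 and Ptk6-/- succinate 1. Ppih, a cyclophilin of the spliceosome, was at 5.92, 6.46 and 10.8 CPM in wild type water and 2.25, 3.46 and 3.65 in wild type succinate. The Ptk6-/- libraries held 1.33, 1.92 and 1.87 in water and 5.08, 5.07 and 4.23 in succinate (interaction 2.79, SE 0.47, unadjusted p = 5.8e-05). It too had groups that did not overlap in opposite directions, a pattern found in 138 of the 20340 genes (0.678%). DESeq2 called Fam131a (adjusted p = 1.99e-05) and Ppih (adjusted p = 2.52e-05).

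Ubd, Cd7 and Tlr2 were also among the 10 genes named for the smallest p above 0. The ubiquitin-like modifier Ubd was at 48.2, 33.3 and 30.9 CPM in wild type water and 13.7, 18.4 and 7.93 in wild type succinate. Levels in Ptk6-/- males were 17.8, 6.36 and 14.7 in water and 64.1, 69.4 and 22.3 in succinate (interaction 3.49, SE 0.67, unadjusted p = 0.00021). The T cell surface protein Cd7 was at 31.1, 27.1 and 22.9 CPM in wild type water and 17.5, 15.6 and 15.9 in wild type succinate. In Ptk6-/- males the levels were 18.6, 13.7 and 21.7 in water and 28.5, 29.6 and 27.7 in succinate (1.39, SE 0.30, unadjusted p = 0.00047). Both were lower with succinate in wild type and higher with succinate in Ptk6-/- males, without overlap. DESeq2 called Ubd (adjusted p = 0.000801) and Cd7 (adjusted p = 0.0153). The receptor of bacterial lipoproteins Tlr2 had an interaction of 2.17 (SE 0.57, unadjusted p = 0.0025), with 7.06, 14 and 5.42 CPM in Ptk6-/- succinate and at most 4.70 CPM in any other library. The antibody segment genes Ighv1-9 (5.41), Igkv1-133 (7.07) and Ighv9-4 (-7.83) were also among the 10 named for the smallest p in their direction, as were H3c6, the U1 small nuclear RNA gene Rnu1b6 and the vault RNA gene Vaultrc5, whose levels are given with the replication histones below. Igkv1-133 had 9, 143 and 1876 counts in Ptk6-/- succinate, and Ighv9-4 had 2482, 143 and 225 in Ptk6-/- water. With each library left out in turn they ran from 4.84 to 7.92 and from -8.46 to -5.66. DESeq2 called Ighv1-9 and Igkv1-133 (adjusted p = 0.000414 each) and Ighv9-4 (adjusted p = 0.00989).

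Gasdermin C proteins form membrane pores in enterocytes during the interleukin 13 response, and Gsdmc2, Gsdmc3 and Gsdmc4 are neighbouring copies on chromosome 15 (GRCm39; 63696195 to 63717026, 63729573 to 63750407 and 63763113 to 63784146, minus strand). Gsdmc2 was at 28.6, 52.5 and 49.6 CPM in wild type water and 157, 105 and 262 in wild type succinate. The Ptk6-/- libraries held 43.7, 38.2 and 37 in water and 36.1, 35.9 and 73.9 in succinate. Succinate was higher than water without overlap in wild type males, and the Ptk6-/- groups overlapped. The log2 change was 2.00 in wild type (SE 0.38, unadjusted p = 0.00021) and 0.30 in Ptk6-/- males (SE 0.37, unadjusted p = 0.43), an interaction of -1.70 (SE 0.53, 95% interval -2.85 to -0.55, unadjusted p = 0.0073, adjusted p = 0.99 in edgeR's test).

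Gsdmc3 was at 17, 27.4 and 23.2 CPM in wild type water and 105, 54.4 and 130 in wild type succinate. Levels in Ptk6-/- males were 23.2, 24.4 and 15.9 in water and 10.7, 18.1 and 33.3 in succinate, with an interaction of -2.09 (SE 0.57, unadjusted p = 0.0030). Gsdmc4 was at 55.7, 76.7 and 71.6 CPM in wild type water and 255, 213 and 515 in wild type succinate. Without Ptk6 the levels were 61, 53.9 and 53.3 in water and 41.8, 62.5 and 125 in succinate, with an interaction of -1.81 (SE 0.56, unadjusted p = 0.0072). In both genes wild type succinate stood above all other groups, and within the Ptk6-/- succinate group replicate 3 was the highest. The fourth copy Gsdmc was low, at most 12.7 CPM, with an interaction of -1.86 (SE 1.31, unadjusted p = 0.18). Reads may be split among near-identical copies, so the 4 were also summed: the interaction of the sum was -1.84 (SE 0.56, unadjusted p = 0.0060), from a change of 2.16 in wild type (unadjusted p = 0.00017) and 0.32 in Ptk6-/- males (unadjusted p = 0.43). Without Ptk6-/- succinate 1 the interactions of Gsdmc2, Gsdmc3 and Gsdmc4 were -1.56, -1.85 and -1.55, and with wild type water 1 also left out -1.32, -1.67 and -1.42, each still at an unadjusted p under 0.05.

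The other genes of the gasdermin list did not share that direction. Of 12 tested gasdermins and caspases, 3 were below 0 at an unadjusted p under 0.05 (1.66% of all genes) and 2 above (2.13%), and the median was 0.26 against -0.08 over all genes. The inflammatory caspase Casp4, which cleaves gasdermin D, was at 35.9, 37 and 37.5 CPM in wild type water and 22.3, 14.8 and 14.1 in wild type succinate. The Ptk6-/- libraries held 28.7, 25.3 and 41 in water and 33.6, 57.8 and 40.4 in succinate. Its interaction was 1.58 (SE 0.38, unadjusted p = 0.0011), and DESeq2 called it (adjusted p = 0.049). Casp1, which matures interleukin 1 beta and interleukin 18, had an interaction of 0.64 (SE 0.26, unadjusted p = 0.028), which was -0.44 on log2(FPKM + 1) values, where the median over all genes was -0.71. Gsdmd, the pore-forming target of both caspases, lay between 193 and 380 CPM and had an interaction of 0.37 (SE 0.36, unadjusted p = 0.33).

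**Figure D2:**
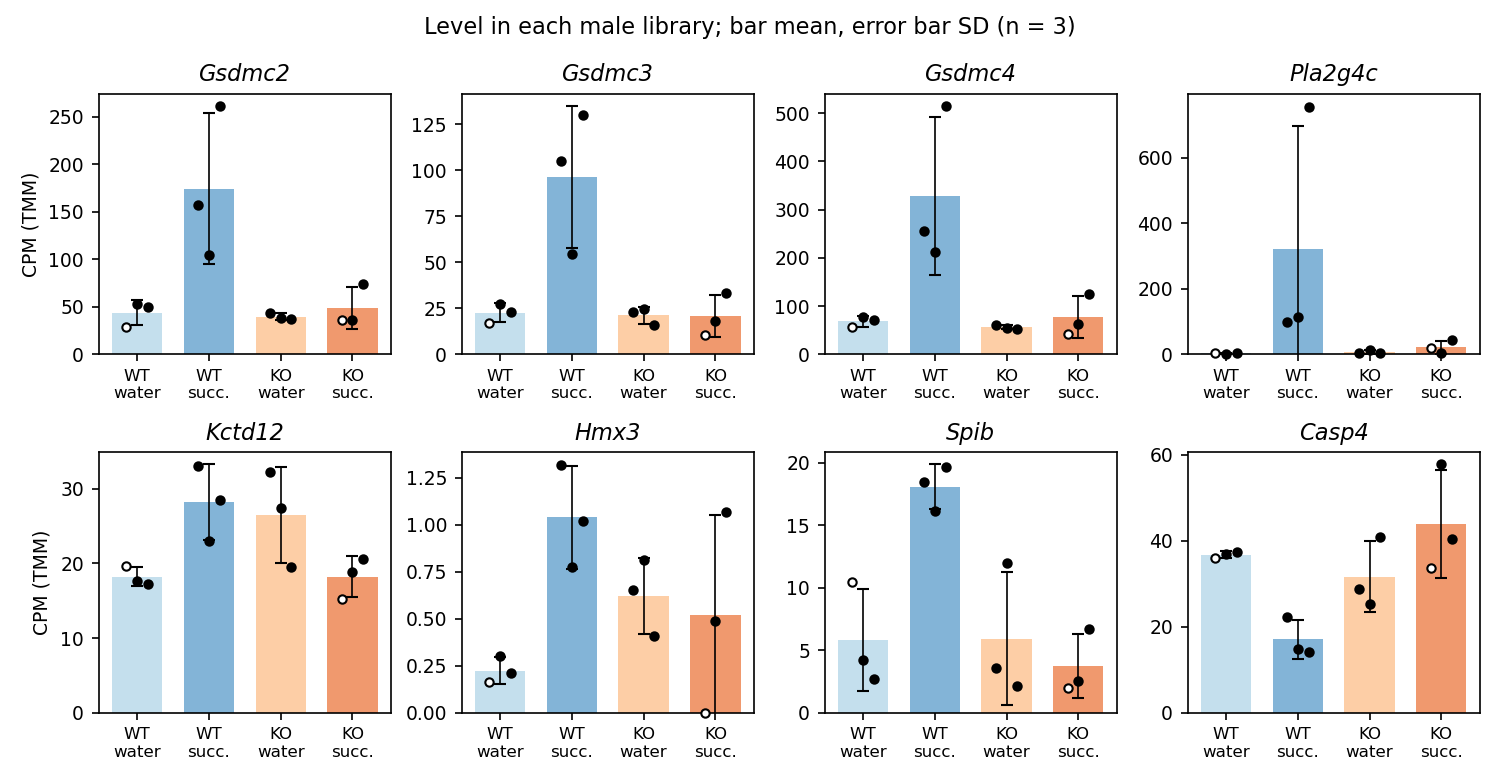
Points give the level in CPM in each male library of 8 genes of the type 2 circuit, bars the mean of 3 libraries and error bars the SD; KO stands for Ptk6-/-, and the open points are wild type water 1 and Ptk6-/- succinate 1. Wild type succinate stands above wild type water without overlap in 7 panels and below it in that of Casp4, and the Ptk6-/- water and succinate groups overlap in all 8.

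Among the enzymes that make lipid mediators, Pla2g4c, a cytosolic phospholipase A2 that releases fatty acids from membranes (chromosome 7, 13058580 to 13094597, plus strand), had the largest change in wild type males. It was at 4.05, 1.26 and 3.10 CPM in wild type water and 98.4, 114 and 756 in wild type succinate. Levels in Ptk6-/- males were 4.88, 12.6 and 2.82 in water and 20.3, 2.98 and 42 in succinate. Every wild type succinate library stood above every other library, and the Ptk6-/- groups overlapped. The change was 6.89 in wild type (SE 1.20, unadjusted p = 8.3e-05) and 1.69 in Ptk6-/- males (SE 0.95, unadjusted p = 0.10), an interaction of -5.20 (SE 1.40, 95% interval -8.24 to -2.15, unadjusted p = 0.0029), and -5.49 (unadjusted p = 0.012) without wild type water 1 and Ptk6-/- succinate 1. Ltc4s, the leukotriene C4 synthase of tuft cells, was at 3.08, 2.15 and 2.22 CPM in wild type water and 2.15, 9.38 and 12.7 in wild type succinate. In Ptk6-/- males the levels were 2.46, 2.17 and 2.62 in water and 5.36, 1.35 and 2.93 in succinate. Its interaction of -1.41 (unadjusted p = 0.11) was -1.91 (unadjusted p = 0.032) without Ptk6-/- succinate 1, the library that was highest in its group, and lay between that and -0.91 with each library left out in turn. Alox5 (-1.43), Alox5ap (-0.54), Ptgs1 (-0.59) and Ptgs2 (-1.28), which begin leukotriene and prostaglandin synthesis, were below 0 without passing an unadjusted p of 0.05. With each library left out, Alox5 ran from -2.24 to -1.0, Alox5ap from -1.03 to -0.14 and Ptgs2 from -1.74 to -0.88. Over the 11 enzymes tested, 1 was below 0 at that threshold (1.66% of all genes), 9 had a value under 0 (56% of all genes) and the median was -0.59 (-0.08 over all genes).

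Tuft cell genes shared a direction more than they passed a test. Of 43 tuft cell genes tested, 11 of sensing and signalling and 32 of identity and structure, 37 had an interaction under 0, against 56% of all genes, and 5 were below 0 at an unadjusted p under 0.05, against 1.66%. The median interaction was -0.89, from a median change of 0.87 in wild type and 0.01 in Ptk6-/- males. Succinate was higher than water without overlap for 26 of the 43 genes in wild type males, where 4.79% of all genes were, and for 4 of the 43 in Ptk6-/- males, where 11.4% of all genes were. These genes share cells and libraries, so the counts are a description. At 0 counts in Ptk6-/- succinate 1 were 19 of the 43 genes. For these, succinate could not lie above water without overlap in Ptk6-/- males, whatever the other libraries held. Without that library the median interaction was -0.65 for the sensing genes and -0.67 for the identity genes.

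Of the sensing genes none reached an unadjusted p of 0.05. The succinate receptor gene Sucnr1 had 0, 14 and 28 counts in wild type water and 43, 56 and 58 in wild type succinate. In counts, the Ptk6-/- libraries held 17, 20 and 9 in water and 0, 10 and 29 in succinate, an interaction of -1.52 (SE 1.22, unadjusted p = 0.23; between -2.46 and -1.12 with each library left out). Wild type succinate was above every other library in CPM, yet the counts are few. The fatty acid receptor Ffar3 had -1.98 (SE 0.95, unadjusted p = 0.059) and the signalling regulator Rgs13 -1.0 (SE 1.04, unadjusted p = 0.36; -3.12 without Ptk6-/- succinate 3 and -0.54 without Ptk6-/- succinate 2). The channel gene Trpm5 went the other way: it was at 10.5, 10.6 and 12.2 CPM in wild type water and 13.4, 12.8 and 19.6 in wild type succinate. Levels in Ptk6-/- males were 7.22, 8.47 and 13.9 in water and 26.5, 18 and 16.9 in succinate. Succinate was above water without overlap in both genotypes, and the interaction was 0.58 (SE 0.41, 95% interval -0.32 to 1.48, unadjusted p = 0.18; between 0.33 and 0.91 with each library left out). Phospholipase C beta 2 (Plcb2), which acts upstream of the channel, had -0.74 (SE 0.39, unadjusted p = 0.076).

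Among identity genes, Kctd12, an auxiliary subunit of GABA-B receptors, was at 19.6, 17.7 and 17.3 CPM in wild type water and 33.1, 23 and 28.5 in wild type succinate. Without Ptk6 the levels were 32.3, 27.4 and 19.5 in water and 15.2, 18.8 and 20.6 in succinate. The interaction was -1.16 (SE 0.33, unadjusted p = 0.0038), and -1.14 (unadjusted p = 0.0068) without wild type water 1 and Ptk6-/- succinate 1. The homeobox gene Hmx3 (-2.13, unadjusted p = 0.044) and the surface protein genes Ly6g6f (-3.79, unadjusted p = 0.038; between -8.88 and -2.94 with each library left out) and Ly6g6d (-2.90, unadjusted p = 0.041) were at or below 3.00 CPM in every male library. Dclk1, the microtubule kinase used to stain tuft cells, was at 5.43, 2.99 and 4.07 CPM in wild type water and 8.98, 4.64 and 7.00 in wild type succinate. The Ptk6-/- libraries held 5.22, 4.71 and 4.22 in water and 2.26, 2.98 and 5.65 in succinate, with an interaction of -1.06 (SE 0.53, unadjusted p = 0.070). The groups of Dclk1 overlapped in both genotypes. The master regulator of the lineage, Pou2f3, had -0.71 (SE 0.92, unadjusted p = 0.46), and the actin-binding Avil -0.62 (SE 0.53, unadjusted p = 0.26). When single libraries were left out, Pou2f3 lay between -1.56 and -0.43 and Avil between -1.28, without Ptk6-/- succinate 3, and -0.36, without Ptk6-/- succinate 1. Krt18 (0.71), Espn (0.97) and Matk (0.13) were above 0 in the full fit, and each had its highest level of any male library in Ptk6-/- succinate 1; with each library left out they ran from 0.05 to 0.96, 0.21 to 1.25 and -0.69 to 0.49.

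Spib, a transcription factor of tuft cells and also of B cells and M cells, was at 10.5, 4.21 and 2.74 CPM in wild type water and 18.4, 16.1 and 19.6 in wild type succinate. Levels in Ptk6-/- males were 3.57, 12 and 2.17 in water and 1.98, 2.55 and 6.72 in succinate (-2.24, SE 0.93, unadjusted p = 0.032; -1.20 without Ptk6-/- water 2). The B cell factor Pax5 was also highest in wild type succinate, at 6.24, 1.83 and 0.482 CPM in wild type water and 10.3, 9.73 and 11.7 in wild type succinate. In Ptk6-/- males the levels were 0.457, 6.27 and 0.243 in water and 0.847, 0.488 and 1.80 in succinate. All 15 B cell follicle genes tested had an interaction under 0 (56% of all genes), with a median of -2.10, none passed an unadjusted p of 0.05, and their summed level ran from 147 to 167 CPM in wild type succinate against 26 to 116, 20.8 to 93.2 and 21.6 to 51.3 CPM in wild type water, Ptk6-/- water and Ptk6-/- succinate. Their median was -0.53 without Ptk6-/- water 2, -3.29 without wild type water 1, the libraries with the most follicle transcripts in their groups, and -3.10 without both wild type water 1 and Ptk6-/- succinate 1, where 7 of the 15 were below 0 at an unadjusted p under 0.05 (2.71% of all genes in that fit). In the female libraries the median interaction of the follicle list was -1.85, and the median of the male minus the female interaction was -0.037. The part of lymphoid tissue in the Spib value was not tested.

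**Figure D3:**
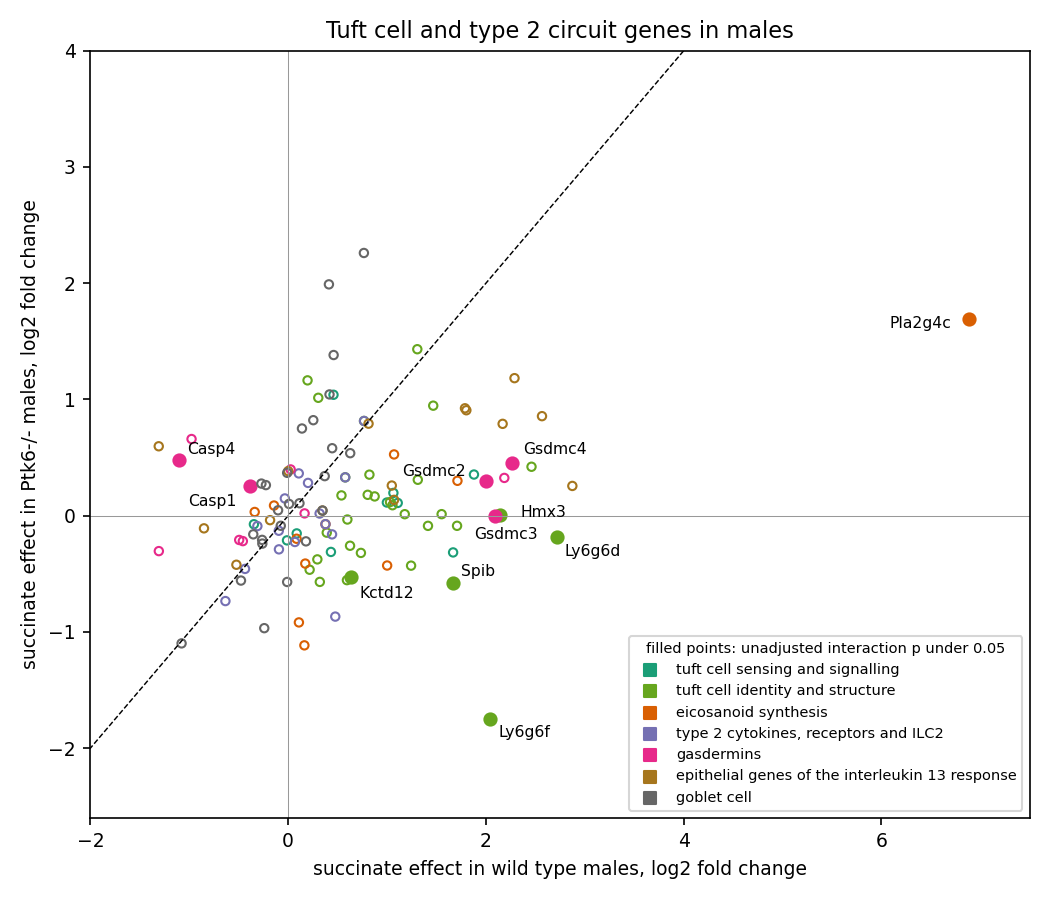
Each point is 1 gene of the 7 circuit lists other than the PTK6 kinase family, with the log2 change with succinate in wild type males on the horizontal axis and in Ptk6-/- males on the vertical axis; filled points have an unadjusted interaction p under 0.05, the dashed line marks equal changes, and genes with a group at or below 3 counts in every library are left out. Gsdmc2, Gsdmc3, Gsdmc4 and Pla2g4c lie at 2.00 or more in wild type and at 1.69 or less in Ptk6-/- males, below the line, and Casp4 and Casp1 lie above it.

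Il25, the tuft cell signal to lymphoid cells, had 6, 9 and 9 counts in the wild type succinate libraries and 0 in each of the other 9 male libraries, too few to enter the test. Il13 had at most 11 counts in any male library and Il5 at most 8. The taste G protein subunit Gng13 had 7, 20 and 22 counts in wild type succinate and at most 5 elsewhere in males, and the decoy receptor Il13ra2 had 0, 19 and 35 in wild type succinate and at most 4 elsewhere. Other genes of these lists too low for the test did not share that pattern: Gnb3 had 5, 13 and 0 counts in wild type water and 0 in each wild type succinate library, Tas1r1 0, 10 and 10 against 5, 7 and 0, and Il4 0, 7 and 9 against 8, 4 and 5. The 15 genes tested of the cytokine, receptor and lymphoid cell list had a median interaction of -0.10, and 0 were below or above 0 at an unadjusted p under 0.05 in edgeR's test. The receptor subunits Il4ra (-0.20) and Il13ra1 (-0.03), the transcription factor Stat6 (-0.02) and the alarmin Il33 (0.22) had unadjusted p-values of 0.48, 0.93, 0.96 and 0.77. The sign of Il13ra1, Stat6 and Il33 turned when single libraries were left out, with ranges of -0.21 to 0.20, -0.25 to 0.37 and -0.13 to 1.02.

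Epithelial genes of the interleukin 13 response had a median interaction of -0.86 over 17 genes, 12 of them under 0 (56% of all genes) and 2 below 0 at an unadjusted p under 0.05 (1.66% of all genes), Retnlb and Chil3, the latter of the set of 14, from a median change of 1.05 in wild type and 0.38 in Ptk6-/- males. Resistin-like beta (Retnlb), a goblet cell protein made in helminth infection, had 0 counts in each wild type water library and 23, 121 and 239 in wild type succinate, at least 23.9-fold higher. In Ptk6-/- males it had 14, 11 and 8 counts in water and 0, 6 and 45 in succinate, so the groups overlapped. The interaction had an unadjusted p of 0.0020, and DESeq2 called it (adjusted p = 0.0172). The small proline-rich gene Sprr2a3 was at 132, 128 and 114 CPM in wild type water and 195, 453 and 1565 in wild type succinate. The Ptk6-/- libraries held 96.8, 147 and 189 in water and 252, 218 and 313 in succinate (-1.71, SE 0.79, unadjusted p = 0.051; -0.52 without wild type succinate 3). Succinate was above water without overlap in both genotypes for this gene. Summed with its overlapping neighbours Sprr2a1 and Sprr2a2, the interaction was -0.91 (SE 0.76, unadjusted p = 0.25). The oxidase maturation factor Duoxa2 was higher with succinate without overlap in wild type (2.29, unadjusted p = 0.00054) and Ptk6-/- males (1.18, unadjusted p = 0.029), with an interaction of -1.11 (SE 0.67, unadjusted p = 0.12; -0.52 without wild type succinate 3). The fucosyltransferase Fut2 had -1.38 (unadjusted p = 0.14), and -2.02 (unadjusted p = 0.034) without Ptk6-/- succinate 1, its highest library, and lay between that and -0.59 with each library left out in turn. Nitric oxide synthase Nos2 had 1.91 (unadjusted p = 0.088), 2.30 (unadjusted p = 0.030) without Ptk6-/- succinate 1 and 0.56 without Ptk6-/- succinate 2, where it was at 1005 CPM against at most 385 CPM in the other 11 libraries.

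The 26 goblet cell genes had a median interaction of 0.07, with 11 under 0 (56% of all genes) and 1 below 0 at an unadjusted p under 0.05 (1.66%), the Retnlb already given. The mucin Muc2 had -0.40 (SE 0.49, unadjusted p = 0.43; between -0.67 and 0.026 with each library left out), the trefoil factor Tff3 1.58 (SE 0.93, unadjusted p = 0.12; 0.15 without Ptk6-/- succinate 1) and the goblet cell factor Spdef 0.38 (SE 0.33, unadjusted p = 0.27; between 0.09 and 0.54). Tff3 was at 2933 CPM in Ptk6-/- succinate 1 against 253 to 1135 CPM in the other 11 libraries. Of 13 Paneth cell genes other than defensins only the pentraxin Mptx1 was below 0 at an unadjusted p under 0.05: it was at 2.68, 2.71 and 2.87 CPM in wild type water and 4.74, 17.1 and 41.5 in wild type succinate. Levels in Ptk6-/- males were 3.44, 1.71 and 1.3 in water and 4.23, 1.52 and 3.58 in succinate (-2.48, SE 0.92, unadjusted p = 0.019; -1.51 without wild type succinate 3). The 38 alpha-defensins had a median of 0.90, which was -0.09 without Ptk6-/- succinate 1.

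The medians of several other lists rested on single libraries or on the scale. On log2(FPKM + 1) values the median over all genes was -0.71 in place of -0.08, and list medians are read against it. The interferon-stimulated (-0.38), alpha-defensin (-0.34) and ribosomal protein (-0.28) lists lay above that median on both scales. The gasdermin (-0.94), goblet (-0.81) and Paneth (-0.72) lists lay above the median of all genes on counts and below it on this scale, and the tuft identity list (-0.92) and the interleukin 13 list (-1.62) lay below it on both. The tuft identity list lay nearer to that median on this scale than on counts, where it had -0.90 against -0.08. Interferon-stimulated genes had a median of 0.56 over 17 genes, with Ifi44 (1.40), Zbp1 (0.82) and Ifit3 (0.89) above 0 at an unadjusted p under 0.05, as were 2.13% of all genes, and 0.60 without Ptk6-/- succinate 1. With wild type water 1 left out as well, the median was 0.55 and 0 of the 17 were above 0 at an unadjusted p under 0.05 in edgeR's test; on log2(FPKM + 1) values Zbp1 and Ifit3 were -0.21 and -0.11. All 15 immediate early genes were under 0 (56% of all genes), with a median of -0.51 and 3 at an unadjusted p under 0.05 (1.66%), among them Dusp1 (-1.70) and Nr4a1 (-1.19), whose lowest library was Ptk6-/- succinate 1; 12 of 15 were under 0 when wild type water 1 was left out as well. All 11 smooth muscle genes were under 0 as well (median -0.31, none at an unadjusted p under 0.05). Their median was -0.55 without wild type water 1 and -0.65 without both that library and Ptk6-/- succinate 1. The acute phase gene Saa1 was at 319, 47.2 and 25.6 CPM in Ptk6-/- succinate and at most 21.3 CPM elsewhere (3.46, SE 1.20, unadjusted p = 0.013; 1.60, unadjusted p = 0.084 without Ptk6-/- succinate 1), and the antimicrobial lectin Reg3g had 1.40 (unadjusted p = 0.047; 0.96, unadjusted p = 0.12). Cytosolic ribosomal protein genes had a median of 1.00 over 85 genes, which was 0.12 without Ptk6-/- succinate 1. Replication-dependent histone genes, whose transcripts lack a poly(A) tail, had a median of 5.31 with 46 of 58 above 0 at an unadjusted p under 0.05 (2.13% of all genes), 2.65 without Ptk6-/- succinate 1 and 0.19 with wild type water 1 also left out. H3c6 stood at 20.4 CPM in wild type water 1 and 26.2 CPM in Ptk6-/- succinate 1 and at most 0.894 CPM in the other 10 libraries, the same libraries that carried the most 18S counts. In those libraries Rnu1b6 was at 38.1 and 8.75 CPM and at most 1.03 CPM in the others, and Vaultrc5 was at 62.4 and 20 CPM and at most 2.03 CPM in the others.

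**Figure D4:**
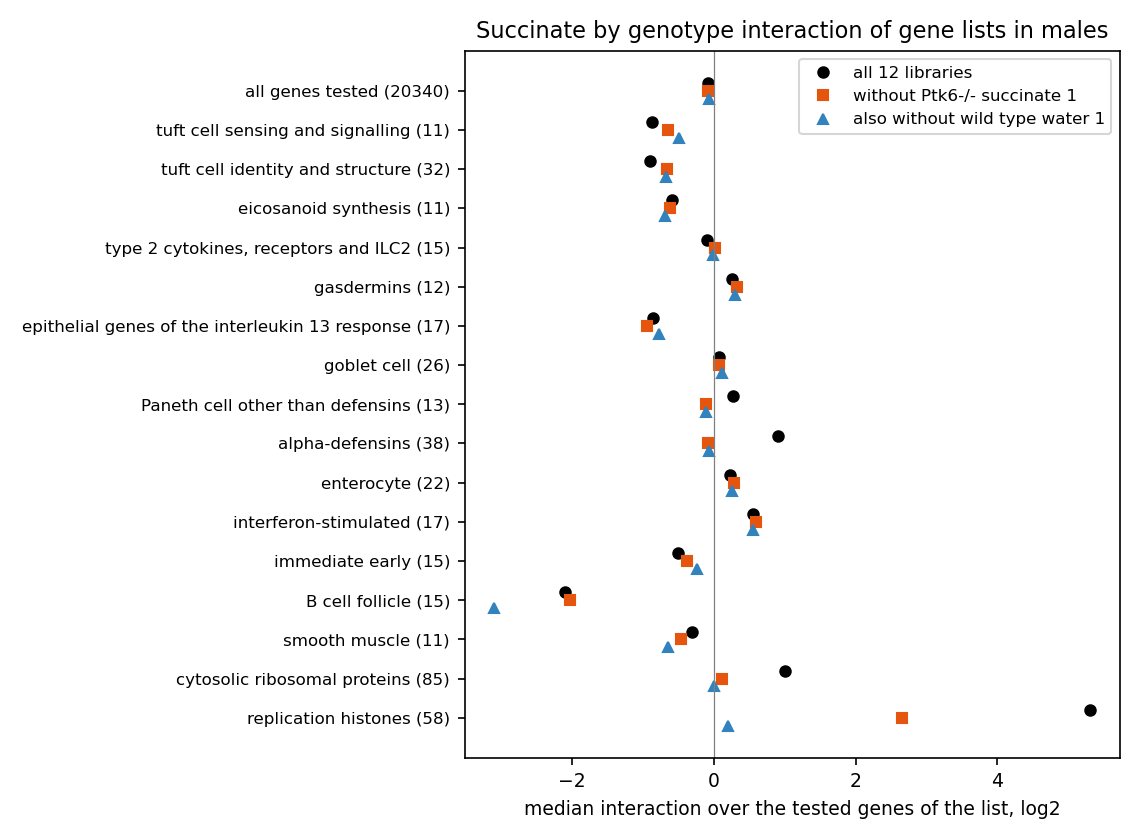
The median interaction on the log2 scale over the tested genes of each list (number tested in brackets), with all 12 male libraries (circles), without Ptk6-/- succinate 1 (squares) and without wild type water 1 as well (triangles). The tuft cell, eicosanoid and interleukin 13 lists lie below 0 in each of the 3 fits, whereas the ribosomal protein, alpha-defensin and histone medians of 1.00, 0.90 and 5.31 come to 0.0059, -0.07 and 0.19 in the last fit.

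Without Ptk6-/- succinate 1, 20320 genes were tested and 0 were called in edgeR's test, with 773 at an unadjusted p under 0.05, 477 below 0 (2.35%) and 296 above 0 (1.46%). The direction of that split was the opposite of the full fit, where more genes lay above 0. With wild type water 1 left out too, 7 of 20258 genes were called, Ighv1-9 above 0 and Clec4g, Gm47428, Ngp, Marco, S100a8 and Chil3 below 0, the 6 all in the set of 14. Of the 43 tuft cell genes, 4 identity genes were below 0 at an unadjusted p under 0.05 without Ptk6-/- succinate 1 and 6 without both libraries (2.71% of all genes), and 10 of 11 sensing genes and 29 of 32 identity genes were under 0 without both (56.4% of all genes). Nrep, an identity gene at 0 CPM in Ptk6-/- succinate 1, had -1.15 (unadjusted p = 0.19) in the full fit and -0.75 (unadjusted p = 0.026) without that library.

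The same interaction in the 12 female libraries served as a comparison. In females 0 of 20531 genes (0%) were called in edgeR's test, with 1327 at an unadjusted p under 0.05, and DESeq2 called 55. The library labelled female wild type succinate 2 held 23.7 CPM of the Y-linked gene Ddx3y, against at most 0.157 CPM in the other 11 female libraries and 9.36 to 22 CPM in males. It also held 74.9 CPM of the female-expressed Xist, against 91.3 to 188 CPM in the other female libraries and at most 1.72 CPM in males. The heart myosin Myh6 was at 9049 CPM in it, against at most 8.91 CPM in the other female libraries. The origin of these transcripts was not tested. Some values are therefore also given without this library. The female interaction then had 0 calls and 853 genes at an unadjusted p under 0.05. Succinate against water called 12 of 20531 genes in wild type females and 30 in Ptk6-/- females in edgeR's test, all higher with succinate. The responses of Gsdmc2 and Pla2g4c were large in both genotypes. Gsdmc2 was at 67.1, 36.7 and 36.3 CPM in wild type water and 1266, 800 and 246 in wild type succinate. Without Ptk6 the levels were 69.8, 59.6 and 66.9 in water and 710, 1773 and 1535 in succinate. Pla2g4c was at 10.4, 4.63 and 5.4, 1812, 1163 and 545, 19.6, 14.8 and 13.6, and 1721, 2530 and 2968 CPM in the same order of groups. Neither genotype overlapped between water and succinate for these genes in females.

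The difference between the sexes was tested as the male minus the female interaction. Of 21694 genes 0 (0%) were called in edgeR's test, with a smallest adjusted p of 0.156, 1299 at an unadjusted p under 0.05 and 657 of these lower in males (3.03%). DESeq2 called 104, and edgeR's test called 31 without male wild type water 3. Without female wild type succinate 2 edgeR's test called 0 of 21568 genes, with 1040 at an unadjusted p under 0.05. Gsdmc3 had an interaction of -2.09 in males and 0.71 in females, a difference of -2.85 (unadjusted p = 0.0036; -2.78, unadjusted p = 0.0064 without female wild type succinate 2). Pla2g4c had -5.20 and -0.20, a difference of -5.04 (unadjusted p = 0.0046; -5.05, unadjusted p = 0.0073 without that library). Kctd12 had -1.16 and 0.53 (difference -1.74, unadjusted p = 0.0030), and Dclk1 -1.06 and 0.70 (difference -1.80, unadjusted p = 0.032).

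Casp4 had an interaction of 1.58 in males and -0.80 in females (difference 2.33, unadjusted p = 0.0062). In females it was lower with succinate in both genotypes without overlap, at 42.9, 47.1 and 29.1 CPM against 6.66, 7.13 and 19.5 in wild type, and 39.2, 49.8 and 94.5 against 12, 8.07 and 9.50 in Ptk6-/- animals. In males the same was seen in wild type only, and the Ptk6-/- groups overlapped. Fam131a had the smallest p of the named genes in this comparison (difference -5.13, unadjusted p = 6.5e-05). Of the 43 tuft cell genes, 37 had a difference under 0 (51.3% of all genes) and 15 had a female interaction under 0 (52.9% of all genes). In the test of the sexes Hmx3 (-3.30, unadjusted p = 0.019), Ly6g6f (-4.19, unadjusted p = 0.026) and Hmx2 (-3.01, unadjusted p = 0.032) were below 0. Trpm5 had an interaction of 0.58 in males and -0.03 in females (difference 0.55, unadjusted p = 0.49). Il25 was counted 41, 46 and 4 times in female wild type succinate and 3, 61 and 28 times in female Ptk6-/- succinate, against at most 4 in the 6 female water libraries.

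**Figure D5:**
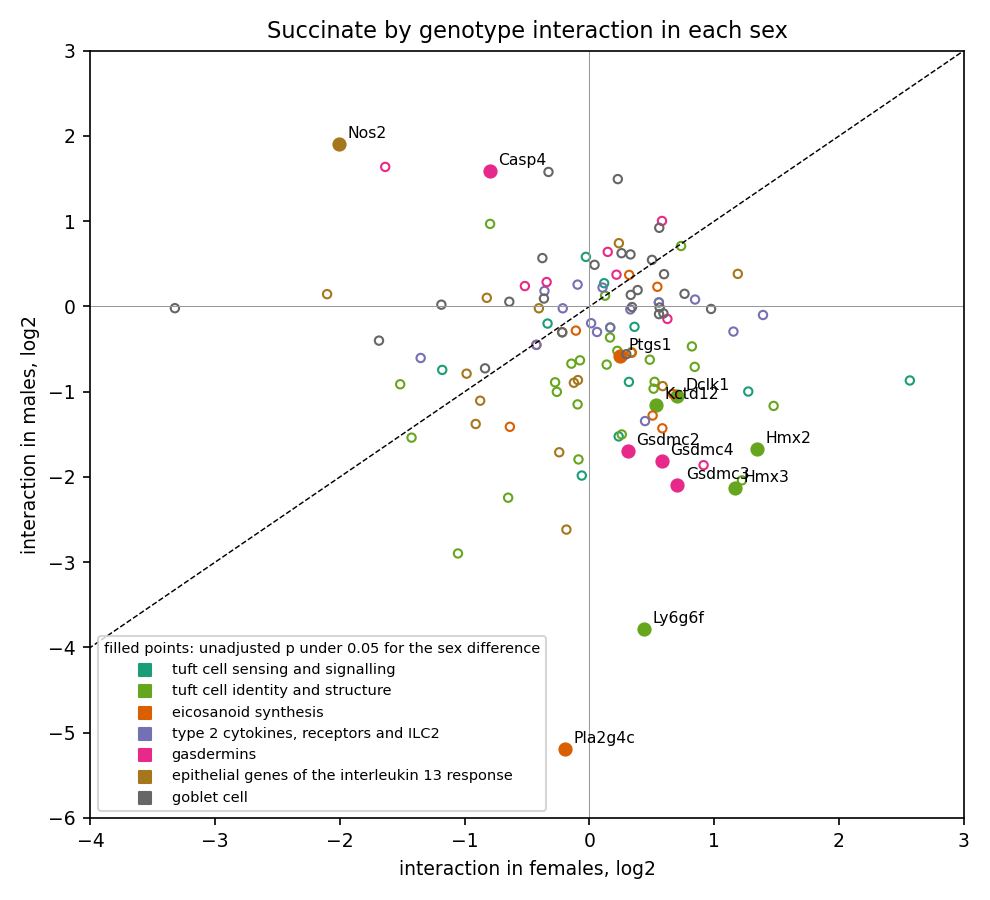
Each point is 1 gene of the 7 circuit lists other than the PTK6 kinase family, with the succinate by genotype interaction (log2) in females on the horizontal axis and in males on the vertical axis; filled points have an unadjusted p under 0.05 for the difference between the sexes, the dashed line marks equal values, and genes with a male group at or below 3 counts in every library are left out. Pla2g4c, Ly6g6f, Gsdmc2, Gsdmc3 and Gsdmc4 lie below the line, at -1.70 to -5.20 in males and -0.20 to 0.71 in females, and Casp4 and Nos2 lie above it.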

How the data were processed

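Poly(A)-selected, strand-marking RNA-seq libraries were made from distal jejunum of 24 mice. Per the study's methods the authors trimmed reads with Cutadapt 1.9, checked them with FastQC 0.11.9, aligned them with HISAT2 2.0.4 and assembled and quantified transcripts with StringTie 1.3.4d, merging with gffcompare 0.9.8; the genome build in the submitters' processing notes is GRCm39, and the counting program is not given in the sources used here. The deposited table holds raw counts for 56691 genes (34471 with a count in any library) and a second deposited table holds FPKM values, which the authors computed per kilobase of transcript and library size. No columns of per-sample values were left unused (0), and coordinates are those of the deposited tables. Poly(A) selection should remove 18S RNA and histone messages, so libraries rich in them lose depth for other genes.

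Counts of the 12 male libraries were tested in edgeR 4.0.16 (R 4.3.3) with TMM scaling, a quasi-likelihood fit of the 4 groups and Benjamini-Hochberg adjustment over every gene for which 3 or more libraries held 10 counts; log2 fold changes and their SE come from that fit, and the deposited FPKM values served as an alternative. Females and all 24 libraries were fitted likewise. A gene with at most 3 counts in every library of a group was compared with that floor of 3 counts per library. Genes named were Ptk6, all genes of 8 circuit lists, up to 3 genes with the smallest p of each of 19 other lists and the 10 named genes with the smallest p in each direction. The members, lists and tests were chosen with earlier results of these data known. The test was run on simulated data for 19743 genes: of 50 genes per size it called 0 at 2-fold, 9 at 4-fold, 33 at 8-fold and 46 at 32-fold, and 7 of 19543 unchanged genes. The changed genes were drawn from those with a mean of at least 1 CPM. Alternatives used DESeq2 1.42.0, limma 3.58.1 (voom, and log2(FPKM + 1) above a mean of 0.5), other filters, a gene length offset, a replicate block and left-out libraries. No pair of libraries of a group agreed within sampling noise.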

Additional observations from a re-analysis of the deposited data

Results flagged for a closer look

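For 12 named genes the succinate and water groups did not overlap in either genotype and lay in opposite directions, as in 138 of 20340 genes (0.678%). The unadjusted p of the interaction in edgeR's test was 6.387e-06 for S100a8, 3.516e-05 for Clec4g, 0.0002242 for Marco, 0.0002684 for Ngp, 0.0005599 for Gdf15 and 0.0006911 for Cd5l, all higher with succinate in wild type and lower in Ptk6-/- males. These 6 belong to the 14 transcripts that were also low in wild type water 1, and that library's part in the values was measured by leaving it out, after which 5 of the 14 were called. Fam131a (9.738e-05), the orphan receptor Gpr37 (0.0004336) and the acute phase gene Saa2 (0.04802) had the same directions. Gpr37 had 0 counts in every wild type water and Ptk6-/- succinate library, 42, 5 and 55 in wild type succinate and 13, 11 and 8 in Ptk6-/- water. With 3 counts per library as the floor, its Ptk6-/- fall was not detectable at this depth, since the floor of the succinate group was above the level in Ptk6-/- water. Saa2 stayed below 1 CPM in every male library. Ppih (5.816e-05), Ubd (0.0002102) and Cd7 (0.0004724) lay the other way, lower with succinate in wild type and higher in Ptk6-/- males. None had an adjusted p under 0.05 in edgeR's fit of all 12 male libraries, where the smallest was 0.0749. DESeq2 called all of these genes except Saa2, and voom called Fam131a.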

How the results depend on the processing

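Genes called for the male interaction numbered 62 with DESeq2 (42 above 0; 11 of the 20 below 0 in the set of 14), 3 with no filter on low counts, 2 with voom, 7 without both Ptk6-/- succinate 1 and wild type water 1, and 0 to 5 with each library left out in turn, against 0 in the main test. Genes at an unadjusted p under 0.05 numbered 1249, 1590 and 3219 with DESeq2, no filter and voom, 400 with at least 10 counts in every library, and 521 to 1270 with each library left out, the most without Ptk6-/- succinate 3. Wild type calls numbered 30 with DESeq2, 1542 with voom, 1 each on FPKM, without both libraries and with all 24 libraries in 1 fit, and 0 to 129 with each library left out. Ptk6-/- calls numbered 24 with DESeq2, 2 with DESeq2's size factors, 3 each with no filter and on FPKM, 10 without both libraries, 0 with the stricter filter, the length offset, voom and all 24 libraries, and 0 to 8 with each library left out. Female calls numbered 55 with DESeq2 and 0 with each library left out. The test of the sexes called 104 with DESeq2, 31 with no filter, 6 with voom and 0 to 31 with each library left out. The cause of these differences was not tested.

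Replicate numbers did not pair the samples: same-numbered libraries correlated between -0.31 and 0.28, over 0.1 in 4 of 18 pairs, and 3 libraries correlated best with their own number. With the replicate block, alone or with the length offset, 0 genes were called for the interaction and for succinate in Ptk6-/- males, with 562 and 628 at an unadjusted p under 0.05 for the interaction.

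Of 4291 values of 192 named genes under 23 settings, 4015 kept their sign; among the 52 genes at an unadjusted p under 0.05 the sign changed for Casp1 (-0.4363), Zbp1 (-0.2074) and Ifit3 (-0.1063), each on log2(FPKM + 1), where the median over all genes was -0.71 and all 3 stayed above it. In Ptk6-/- succinate 1, the shallowest library, 19 of 43 tuft cell genes had 0 counts, and the part of depth in this was not tested.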
